A study of Mus musculus with 10 samples.

Results

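The chemokine system of the mouse hippocampus was examined 4 days after subarachnoid hemorrhage (SAH), gene by gene and mouse by mouse. The genes were chosen by name: every gene symbol made of Ccl, Ccr, Cxcl, Cxcr or Ackr, a number and at most 1 letter, together with Cx3cl1 and Xcr1. This gave 59 of the 24391 gene names in the count tables, 38 of them ligands and 21 receptors. Of the 59, 48 had at least 1 count in at least 1 of the 10 mice, and 11 had none.

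Whole hippocampi from both sides were collected from male mice (strain printed as C56BL/6J in the study's methods) aged 10 to 14 weeks, with 1 RNA library per mouse. SAH mice (n = 4) had the circle of Willis, the arterial ring at the base of the brain, perforated on 1 side by a filament passed up the internal carotid artery, and only animals whose cerebral blood flow fell sharply at perforation were kept. Sham mice (n = 3) underwent the same surgery with no perforation of the artery, and Naive mice (n = 3) had no surgery. Sham and Naive mice together formed the control group (n = 6). Only males were used, at a single time point.

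Chemokines are small secreted or membrane-tethered proteins that guide leukocytes along gradients by binding G protein-coupled receptors on them. CC ligands such as Ccl2 and Ccl5 mainly draw monocytes, macrophages and T cells, CXC ligands draw neutrophils or, when induced by interferon, activated lymphocytes, and atypical receptors (Ackr) bind and clear ligands without the usual signal. In the brain, Cx3cl1 on neurons and Cx3cr1 on microglia form a constitutive pair, and Cxcl12 is made by vessels, meninges and neurons.

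Proximal promoters can be read beside the counts where the RefSeq table holds them. Promoters (250 bases before to 50 after the transcription start, GRCm38.p6, RefSeq) were found for 43 of the 59 genes, 50 promoters in all. Those not found include Ccl2, Ccl4, Ccl5, Ccl7, Ccl11, Ccl21c, Ccl24, Ccl26, Ccr7, Ccr10, Cxcl5, Cxcl11, Cxcl16, Cxcl17 and Cxcr5. Among the 10 genes described below as higher in SAH, 6 had one (Ccl12, Cxcl9, Cxcl10, Cxcl12, Ccr1 and Ccr2). Of these 6, 3 are shown, 5′ to 3′ on the gene's strand, because they are an interferon-inducible ligand, a receptor and a ligand of Ccr2 that differ in the motif letters they hold, with motif matches in capitals.
Cxcl10 (GRCm38.p6, chr5:92348840-92349139, minus strand): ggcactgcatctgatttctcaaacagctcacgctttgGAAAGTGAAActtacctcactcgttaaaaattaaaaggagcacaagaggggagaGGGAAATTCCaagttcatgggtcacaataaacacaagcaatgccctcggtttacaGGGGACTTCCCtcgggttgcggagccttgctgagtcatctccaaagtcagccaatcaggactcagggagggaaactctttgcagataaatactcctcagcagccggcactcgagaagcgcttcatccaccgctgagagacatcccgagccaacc
Ccr1 (GRCm38.p6, chr9:123968643-123968942, minus strand): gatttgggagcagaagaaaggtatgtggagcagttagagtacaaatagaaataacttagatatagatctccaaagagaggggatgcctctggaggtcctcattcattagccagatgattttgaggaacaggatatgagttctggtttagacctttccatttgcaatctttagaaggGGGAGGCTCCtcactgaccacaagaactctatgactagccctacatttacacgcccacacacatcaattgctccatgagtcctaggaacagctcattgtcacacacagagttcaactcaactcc
Ccl12 (GRCm38.p6, chr11:82101595-82101894, plus strand): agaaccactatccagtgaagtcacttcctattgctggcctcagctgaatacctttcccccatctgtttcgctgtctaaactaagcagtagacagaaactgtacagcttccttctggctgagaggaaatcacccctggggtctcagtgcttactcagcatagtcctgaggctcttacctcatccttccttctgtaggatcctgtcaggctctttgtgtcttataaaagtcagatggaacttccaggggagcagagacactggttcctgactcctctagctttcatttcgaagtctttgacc

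Motifs were searched on both strands: the interferon-stimulated response element (GAAA, any 2 bases, GAAA), the gamma-activated site TTCNNNGAA, and the NF-kB consensus. The Cxcl10 promoter held an interferon-stimulated response element match at −213 to −204 from the start and NF-kB consensus matches at −159 to −150, −104 to −95 and −103 to −94, the last 2 of which overlap each other. The interferon match overlapped none of the NF-kB matches. The Ccr1 promoter held 1 NF-kB match at −74 to −65, and the Ccl12 promoter held none of the 3 motifs, nor did those of Cxcl9, Cxcl12 and Ccr2. Over the 50 chemokine gene promoters, 12 (24.0%) held an NF-kB match, 3 (6.0%) an interferon-stimulated response element match and 3 (6.0%) a gamma-activated site match. Over all 32851 promoters of the table the shares were 8.46%, 3.44% and 8.30%. The 12 genes with an NF-kB match were Ackr2, Ccl1, Ccl9, Ccl20, Ccl27a, Ccr1, Ccr3, Ccr6, Cxcl1, Cxcl2, Cxcl3 and Cxcl10, of which Cxcl10 and Ccr1 were higher in SAH. These matches describe letters in a window and no binding was measured.

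Counts on genes summed to between 19743388 and 27254655 per mouse, and a count of 0 in a library allows a level of up to 0.110 to 0.152 CPM (3 counts, counting error only). Levels are given as counts, or as CPM (counts relative to sequencing depth, which edgeR's TMM method corrects for library composition). The 3 libraries of SAH mouse 3, SAH mouse 4 and Sham mouse 7 stood apart by 10 marker genes of choroid plexus, the ventricular tissue that borders the hippocampus, which summed to 1244, 879 and 845 CPM there and to between 48.3 and 222 CPM in the other 7 mice. Neuron markers of hippocampal fields were counted in every mouse, Prox1, known from dentate granule cells, at 48.4 to 84.4 CPM and Fibcd1, known from CA1, at 170.5 to 210.04 CPM. In these bulk samples, fewer cells of a type and less RNA per cell cannot be told apart.

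At rest, the chemokine system of the hippocampus was dominated by a few constitutive genes. Levels between genes are compared per kilobase of exon. Cx3cl1, the membrane-tethered fractalkine of neurons, had by far the highest level, 215 ± 9.89 CPM per kb in control mice (mean ± SD, n = 6). Cxcl14, a constitutively expressed CXC ligand, followed with 34.6 ± 1.39 CPM per kb, the atypical receptor Ackr1 with 28.0 ± 1.12 CPM per kb and the CC ligand Ccl27a with 15.3 ± 0.857 CPM per kb. The ranges of these 4 genes over control mice did not overlap in that order. Ackr1 lies 750 bases from Cadm3 on the same strand, and any part of Cadm3 transcripts in its counts was not tested.

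Below them came Ackr3 at 7.94 ± 1.03 and its ligand Cxcl12 at 6.13 ± 0.440 CPM per kb in control mice, then Ccl25 at 2.82 ± 0.133 CPM per kb. Cxcr4 stood at 1.80 ± 0.207 CPM per kb in control mice. The inducible ligands stood lower in the order of control mice, with Ccl12 at 0.394 ± 0.0707, Cxcl10 at 0.231 ± 0.0989, Ccl5 at 0.115 ± 0.120 and Ccl2 at 0.0402 ± 0.0356 CPM per kb. In SAH mice Ccl5 reached 2.19 ± 1.29 CPM per kb (n = 4), rank 8 of 32 genes against rank 20 in control mice, and Ccl12 reached 1.56 ± 0.869 CPM per kb, rank 11 against rank 15. Cx3cl1 stood at 198 ± 9.04 CPM per kb in SAH, and the first 4 genes of the order were in the same places in both groups.

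**Figure D1:**
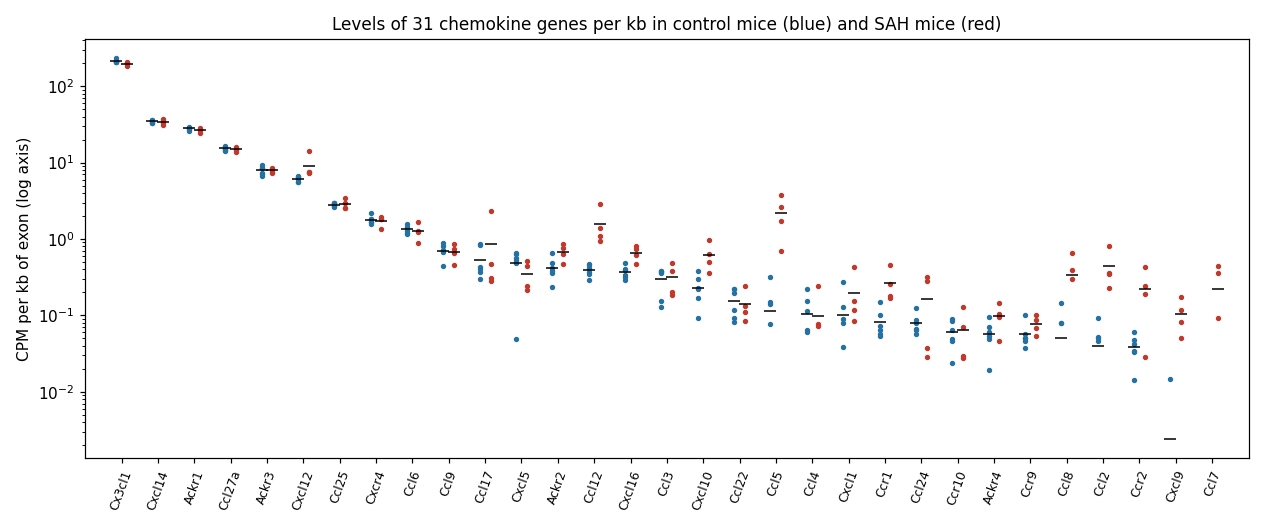
Level of 31 chemokine genes in CPM per kb of exon (log axis), with a point for each control mouse (blue, n = 6) and each SAH mouse (red, n = 4) and a bar at the group mean. Mice at 0 counts are not drawn on the log axis, so Ccl7 shows no control mouse. Cx3cl1 leads at 215 CPM per kb in control mice, and Ccl5 is at 0.115 in control and 2.19 CPM per kb in SAH mice.

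SAH mice were compared with control mice by edgeR's quasi-likelihood test across all genes, and a gene was called at an adjusted p (Benjamini-Hochberg) under 0.10. After edgeR's filter on low counts 17 of the 59 genes could be tested, of which 5 were called higher (Cxcl16, Ccl12, Cxcl10, Cxcl12 and Ccr1) and 0 lower. Over all 14993 genes tested, 3.13% were called higher and 1.54% lower. Of the 17, 13 were above the filter's cutoff in all 10 mice, while 3 of the 5 called genes passed it mainly through the SAH mice: Ccl12 was above the cutoff in 4 SAH and 0 control mice, Ccr1 in 4 and 1, and Cxcl10 in 3 and 1. Ccl12 could pass only by being higher in SAH, and the share of 5 in 17 is not read against the share over all genes. Without a filter, 48 genes were tested and 10 were called higher, adding Ccl2, Ccl5, Ccl7, Cxcl9 and Ccr2, and 0 lower, against 2.53% higher and 1.2% lower over all 19538 genes. At an unadjusted p under 0.05, edgeR put 7 of the 17 and 13 of the 48 past that line, where 17.0% and 14.7% of all genes were, and 1 of the 17 (Cx3cl1) was lower. DESeq2 called 5 higher and 0 lower of the 17, against 4.22% and 2.65% of all genes.

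Among genes past the filter the median log2 fold change was −0.0036 for all 17 and −0.022 over the 13 counted above the cutoff in every mouse, against −0.0024 over all genes tested. Over the 48 genes with counts it was 0.50 in the fit without the filter, against −0.0012 over all genes there. Over the 32 genes with at least 15 counts or past the filter it was 0.50. It was also 0.50 with Ccl7 (0 control counts) put at its ratio to a floor of 3 counts and Cxcl9 (1 control count) at its count ratio. Both medians hold genes that were counted mainly in SAH mice (Ccl7 with 15 SAH and 0 control counts, Cxcl9 with 27 and 1, Ccl2 with 31 and 5, Ccl8 with 15 and 4), which pushes them up, and nothing is read from them. Of the 10 called genes 8 were ligands and 2 were receptors. In 6 genes the lowest SAH mouse exceeded the highest control (Ccl2, Ccl5, Ccl12, Cxcl9, Cxcl12 and Ccr1), a pattern seen in 2.38% of all 19538 genes and in 2.82% of those past the filter. In 1 gene, Cx3cl1, every SAH mouse lay below every control mouse, as in 1.89% and 2.37% of genes.

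**Figure D2:**
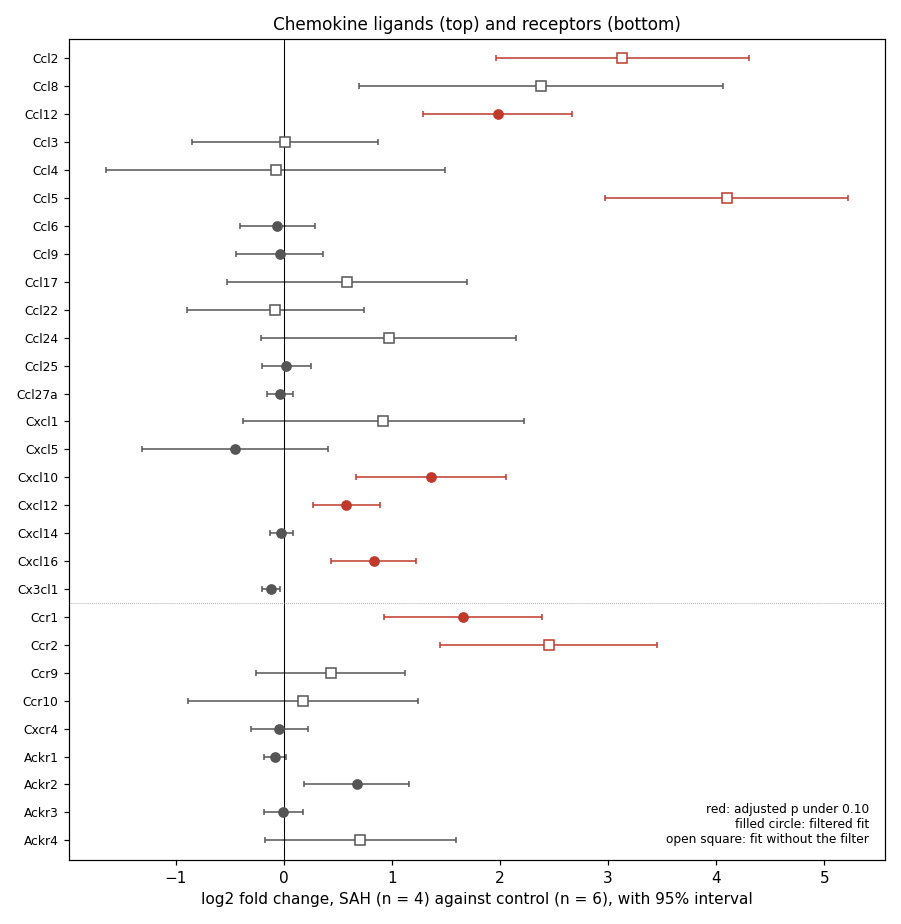
Log2 fold change of 29 chemokine genes in SAH (n = 4) against control (n = 6) with 95% interval, ligands above the dotted line and receptors below it. Filled circles come from the filtered fit and open squares from the fit without the filter. Red marks an adjusted p under 0.10, and Ccl7 and Cxcl9, with 0 and 1 control counts, are left out. Ccl5 is farthest to the right at 4.10, while Cxcl14 at −0.02 and Ccl27a at −0.03 sit near 0.

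Of the ligands of the monocyte receptor Ccr2, Ccl2, Ccl12 and Ccl7 were called higher after SAH, Ccl7 with the weakest call, and the receptor was called as well. Ccl2 (monocyte chemoattractant protein; chromosome 11, 81849079 to 81850954, mm9) had 6, 5, 13 and 7 counts in SAH mice 1 to 4. In the controls it had 0, 1 and 1 counts in Sham and 2, 0 and 1 in Naive mice. No control mouse reached the lowest SAH mouse, and SAH mouse 3 was the highest. The log2 fold change was 3.13 (standard error, SE, 0.60, adjusted p = 0.00938, edgeR without the filter). Every fit that left out 1 mouse kept this call, but without the 3 mice rich in choroid plexus markers, which include SAH mouse 3, it was 2.63 with an adjusted p of 0.152.

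Ccl12, a mouse ligand of Ccr2 encoded further along the same cluster (chromosome 11, 81915347 to 81916901), had 12, 20, 10 and 38 counts in SAH mice. Sham mice had 6, 6 and 5 counts and Naive mice 5, 3 and 6. All SAH mice were above all controls, and SAH mouse 4 had the most. Its level was 0.835 ± 0.466 CPM in SAH and 0.211 ± 0.0379 CPM in control, a difference of 1.98 in log2 (SE 0.35, adjusted p = 0.00884, edgeR), between 1.51 and 2.14 with each mouse left out.

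Ccl7, which also binds Ccr2, had 6, 2, 7 and 0 counts in SAH mice and 0 in all 6 control mice. SAH mouse 4, the highest for Ccl12, was thus level with the controls. The pooled level of the 15 SAH counts was 7.90-fold that of a floor of 3 counts over the control group. This ratio leaves out the counting error of the 15 and is no lower limit. The call (adjusted p = 0.0937, edgeR without the filter) was kept in only 2 of the 10 fits that left out a mouse, those without SAH mouse 2 (0.0694) and SAH mouse 4 (0.0491), and was lost in the other 8, where the adjusted p lay between 0.114 and 0.165.

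Ccl8, in the same cluster, had 7, 0, 3 and 5 counts in SAH mice against at most 2 in any control mouse. Its log2 fold change of 2.38 (SE 0.86) had an adjusted p of 0.193 (edgeR without the filter), and the groups overlapped through SAH mouse 2. Leaving out that mouse gave 2.84 with an adjusted p of 0.0407.

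Ccr2 itself, the receptor of inflammatory monocytes (chromosome 9, 124016922 to 124023879, mm9), had 32, 24, 2 and 17 counts in SAH mice. Sham mice had 3, 6 and 3 and Naive mice 4, 1 and 4. SAH mice 1, 2 and 4 lay above all controls, whereas SAH mouse 3, which had the most Ccl2 and Ccl7, lay among them with 0.101 CPM. The log2 fold change was 2.45 (SE 0.51, adjusted p = 0.0177, edgeR without the filter). It was 2.79 without SAH mouse 3 and 1.98 without SAH mouse 1, and called in all 10 such fits. Against Sham mice alone it was 2.32 (adjusted p = 0.170) and against Naive mice alone 2.60 (0.0782), both without the filter.

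Among the ligands that bind Ccr1, Ccl5 was higher and Ccl3 did not pass the test, nor did the related Ccl4. Ccl5 (RANTES, a ligand of T cells and macrophages; chromosome 11, 83339281 to 83344020) had 19, 10, 39 and 35 counts in SAH mice 1 to 4. No Sham mouse had more than 2 counts (1, 0 and 2) and no Naive mouse more than 4 (2, 0 and 4). The lowest SAH mouse, at 0.368 CPM, stood above the highest control, at 0.170 CPM. Its log2 fold change of 4.10 (SE 0.57, adjusted p = 0.00135, edgeR without the filter) ranged from 3.74 to 4.64 over the fits that dropped 1 mouse and was 3.31 (adjusted p = 0.00656) without the choroid-rich mice.

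Ccl3 (macrophage inflammatory protein 1 alpha) had 8, 4, 6 and 4 counts in SAH mice against 3, 8 and 7 in Sham and 8, 2 and 7 in Naive mice. Its log2 fold change was 0.01 with a 95% interval from −0.85 to 0.87. Ccl4 had 0 to 4 counts in both groups. For these 2 genes a change of the size of Ccl2's was outside the interval (for Ccl4 −1.64 to 1.49), but smaller changes could not be resolved at this depth.

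The receptor Ccr1, carried by monocytes, macrophages and neutrophils (chromosome 9, 123876959 to 123883525), had 27, 20, 10 and 12 counts in SAH mice. Sham mice had 7, 5 and 4 and Naive mice 4, 4 and 10. In CPM every SAH mouse was above every control, though SAH mouse 4 at 0.479 and Naive mouse 10 at 0.424 were close. Its log2 fold change was 1.66 (SE 0.37, adjusted p = 0.0319, edgeR), called in all 10 fits that left out a mouse, with values from 1.29 to 1.90.

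Ccl6 and Ccl9, ligands of Ccr1 that resting myeloid cells express, had 1.82 ± 0.464 and 2.04 ± 0.516 CPM in SAH against 1.91 ± 0.232 and 2.11 ± 0.450 CPM in control, with adjusted p of 0.892 and 0.946 (edgeR). SAH mouse 3 had the lowest and SAH mouse 4 the highest SAH value of both genes.

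Of the 3 interferon-inducible ligands of Cxcr3, Cxcl9 and Cxcl10 were called higher and Cxcl11 was not. Cxcl9 (chromosome 5, 92750357 to 92757105) had 7, 4, 10 and 6 counts in SAH mice, 0 in each Sham mouse, and 0, 0 and 1 in Naive mice. The groups did not overlap. The 27 SAH counts against 1 gave a ratio of pooled levels of 42.7, with a 95% counting interval from 7.03 to 1747, and the adjusted p was 0.00290 (edgeR without the filter). All 10 fits that left out a mouse kept the call.

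Cxcl10 (chromosome 5, 92775665 to 92777915), whose promoter is printed above, had 22, 19, 11 and 10 counts in SAH mice, 8, 5 and 6 in Sham mice and 11, 2 and 6 in Naive mice. In CPM, SAH mice 1, 2 and 3 (1.06, 0.699 and 0.556) were above all controls and SAH mouse 4 (0.400) was just under Naive mouse 8 (0.414). The log2 fold change of 1.36 (SE 0.35, adjusted p = 0.0625, edgeR) was not called without SAH mouse 1 (1.08, adjusted p = 0.125), Naive mouse 9 (0.114) or Naive mouse 10 (0.120). Without SAH mouse 2, Sham mouse 6, Sham mouse 7 or Naive mouse 8 the gene fell under the filter. The third such ligand, Cxcl11, had 5 counts in all and the receptor Cxcr3 had 10, spread over both groups (1, 3, 1 and 1 in SAH mice and 0 or 1 in each control mouse).

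**Figure D3:**
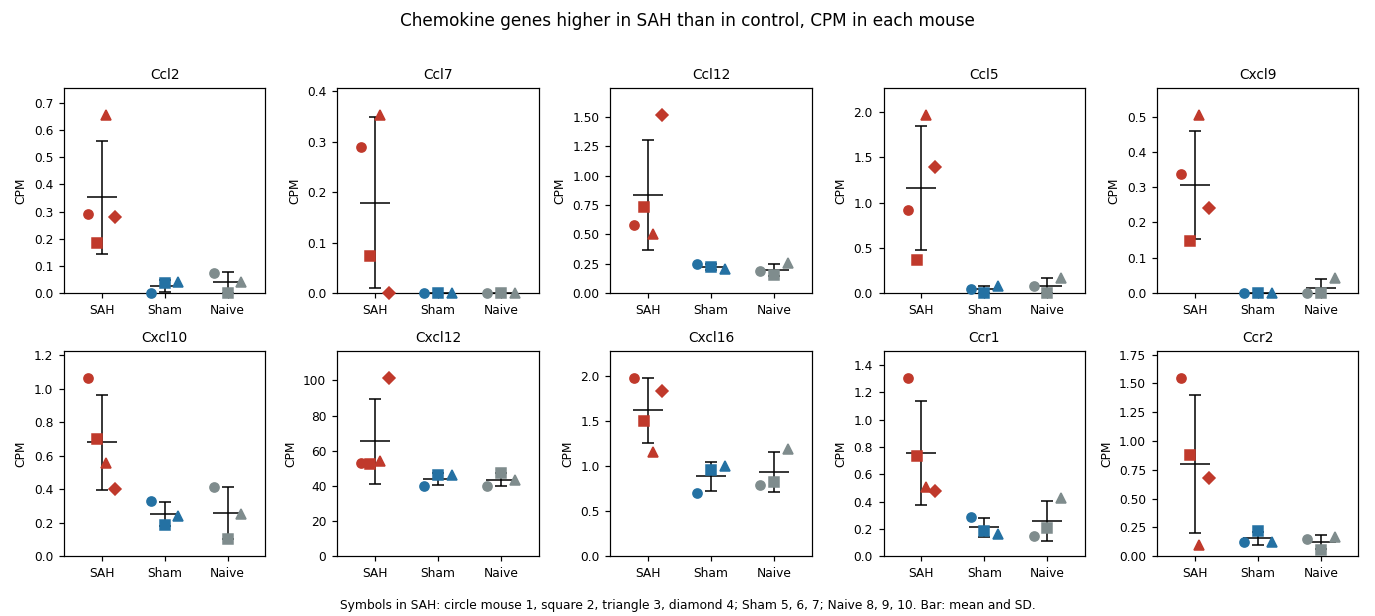
CPM of the 10 chemokine genes called higher in SAH, with a symbol for each mouse and the mean and SD of each group (SAH n = 4, Sham n = 3, Naive n = 3). SAH mouse 3 (triangle) is the highest for Ccl2, Ccl7, Ccl5 and Cxcl9 and the lowest for Ccl12, Ccr2 and Cxcl16. SAH mouse 1 (circle) is the highest for Cxcl10, Cxcl16, Ccr1 and Ccr2, and SAH mouse 4 (diamond) for Ccl12 and Cxcl12.

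Cxcl12, the constitutive ligand that retains cells in tissue through Cxcr4, had the highest level of the 10 called genes, in CPM and per kb. SAH mice 1 to 4 had 53.1, 52.6, 54.1 and 101 CPM. Sham mice had 40.2, 46.2 and 46.2 CPM and Naive mice 40.2, 47.3 and 43.2 CPM. SAH mouse 4 stood far above the other SAH mice, which were close together and all above the highest control. With all mice the log2 fold change was 0.58 (SE 0.16, adjusted p = 0.0736, edgeR). Without SAH mouse 4 it was 0.28, with an adjusted p of 0.0468. The call was lost without Sham mouse 5 (0.141), Sham mouse 6 (0.112), Naive mouse 8 (0.167), Naive mouse 9 (0.122) or Naive mouse 10 (0.139), and in edgeR's robust fit (0.146).

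SAH mouse 4 also had the highest sums of 8 endothelium markers (249 CPM, against 131 to 186 CPM in the other SAH mice) and of 5 pericyte markers (190 CPM, against 150 to 156 CPM). The part of these cells in its Cxcl12 level was not tested. Neither receptor of Cxcl12 followed it. Cxcr4 had 3.34, 3.53, 2.42 and 3.32 CPM in SAH mice and 2.89 to 3.95 CPM in control mice (log2 fold change −0.04, 95% interval −0.31 to 0.22, adjusted p = 0.902, edgeR). Ackr3, an atypical receptor that takes up Cxcl12, had 18.3 ± 1.24 CPM in SAH and 18.4 ± 2.39 CPM in control (95% interval −0.18 to 0.18 on the log2 scale).

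Cxcl16, a transmembrane CXC ligand of macrophages and endothelium (chromosome 11, 70267736 to 70273486), had 1.98, 1.51, 1.16 and 1.84 CPM in SAH mice. Sham mice had 0.701, 0.956 and 1.01 CPM and Naive mice 0.790, 0.822 and 1.19 CPM. SAH mouse 3 lay just below Naive mouse 10, and the other SAH mice lay above all controls. Its log2 fold change was 0.83 (SE 0.20, adjusted p = 0.0469, edgeR), and the call was lost without SAH mouse 4 (0.145) or Naive mouse 8 (0.111). Its receptor Cxcr6, of T and NK cells, had 2 counts over the 10 mice.

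The resting pair of neuron and microglia was not called in SAH against control. Cx3cl1 had 622.3, 625.02, 583.4 and 652.5 CPM in SAH mice, 655, 658 and 657 CPM in Sham mice and 674, 736 and 666 CPM in Naive mice. SAH mouse 4 was only just under the lowest control, and SAH mouse 3 was the lowest of all. The log2 fold change of −0.12 (SE 0.04) had an adjusted p of 0.164 by edgeR and 0.120 by DESeq2 and was not called. Cx3cr1, its microglial receptor, had 52.3 ± 9.02 CPM in SAH and 54.7 ± 2.48 CPM in control (log2 fold change −0.06, adjusted p = 0.756, edgeR). Cxcl14 was at 62.3 ± 4.87 CPM against 63.2 ± 2.54 CPM, within a 95% interval of −0.13 to 0.08 on the log2 scale.

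**Figure D4:**
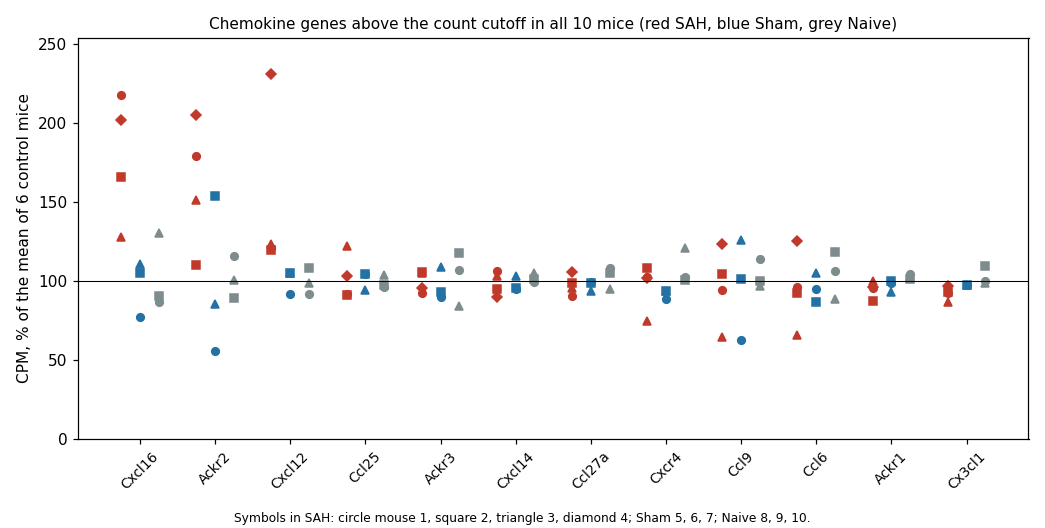
Level of 12 chemokine genes above the count cutoff in all 10 mice, as a percentage of the mean CPM of the 6 control mice, with a symbol for each mouse. Cxcl16 and Cxcl12 were called higher in SAH. For Ccl6 and Ccl9 SAH mouse 4 (red diamond) is the highest and SAH mouse 3 (red triangle) the lowest of the SAH mice.

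No neutrophil ligand of Cxcr2 was called. Cxcl1 had 3, 3, 8 and 2 counts in SAH mice against at most 5 in any control mouse (log2 fold change 0.92, SE 0.66, adjusted p = 0.554, edgeR without the filter). Cxcl5 had 0.584 ± 0.239 CPM in SAH and 0.806 ± 0.369 CPM in control (adjusted p = 0.632, edgeR), with Sham mouse 5 alone at 0.0825 CPM. Cxcl2 had 2 counts and Cxcl3 none. Cxcr2 had 1 count in each SAH mouse and 2 over the controls, and Cxcr1 had 2 in all.

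Among the remaining homeostatic axes 2 ligands were well counted and their receptors were not. Ccl25, the thymic and gut ligand of Ccr9, had 3.67 ± 0.526 CPM in SAH and 3.59 ± 0.170 CPM in control, and Ccr9 had 0.343 ± 0.0891 and 0.252 ± 0.0976 CPM. Ccl27a, known from skin as the ligand of Ccr10, had 21.9 ± 1.43 and 22.5 ± 1.26 CPM (95% interval −0.15 to 0.09 on the log2 scale), and Ccr10 had 1 to 6 counts in each mouse. None of these 4 genes passed the test (adjusted p from 0.587 to 0.938, edgeR). Ccl27a overlaps Il11ra1, and Cxcl16 overlaps Zmynd15, on the opposite strand, which strand-specific counting keeps apart.

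Ccl17, a ligand of Ccr4, had 5, 4, 24 and 4 counts in SAH mice. In Sham mice it had 5, 6 and 11 counts and in Naive mice 5, 3 and 10. The excess sat in SAH mouse 3 alone, the mouse with the highest sum of choroid plexus markers, and the log2 fold change of 0.59 (adjusted p = 0.647, edgeR without the filter) became −0.60 without it. Ccl22, the other Ccr4 ligand, ranged over 3 to 12 counts after SAH and 4 to 11 counts in controls, and Ccr4 itself had none.

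Ccl24, an eosinophil ligand of Ccr3, had 1, 1, 8 and 9 counts in SAH mice, where controls had 2 to 4. Both high SAH mice were choroid-rich, and among the controls choroid-rich Sham mouse 7 had 4 counts, close to the 3 of Naive mouse 8. The log2 fold change of 0.97 (adjusted p = 0.486, edgeR without the filter) became −1.03 once the 3 choroid-rich mice were left out. That value rests on SAH mice 1 and 2, with 1 count each. The part of choroid plexus in Ccl17 and Ccl24 was not tested.

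The lymphoid axes were close to empty. Ccl19, Ccl21a, Ccl21b and Ccl21c, ligands of Ccr7, had 0 counts in every mouse, and Ccr7 had 9 counts, 6 of them in SAH mouse 1. Ccl21b and Ccl21c overlap each other, and they, Ccl21a and Ccl27b overlap other gene models on the same strand, and the counting discards reads that fall on more than 1 gene. Ccl1, Ccl26, Ccl28, Cxcl3, Cxcl15, Ccl27b and Ccr4 also had 0 counts. The 16 genes with 1 to 10 counts over all mice were Ccl11, Ccl20, Ccr3, Ccr6, Ccr7, Ccr8, Cxcl2, Cxcl11, Cxcl13, Cxcl17, Cxcr1, Cxcr2, Cxcr3, Cxcr5, Cxcr6 and Xcr1. None of them was called, and at this depth an absence of change cannot be read from them.

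Of the 4 atypical receptors, 0 were called. Ackr2, which scavenges inflammatory CC ligands, came nearest with 2.27, 1.40, 1.92 and 2.597 CPM in SAH mice, 0.701, 1.95 and 1.09 CPM in Sham mice and 1.47, 1.13 and 1.27 CPM in Naive mice. The groups overlapped, with SAH mice 2 and 3 below Sham mouse 6 and SAH mouse 2 also below Naive mouse 8. Its log2 fold change was 0.67 (SE 0.25, adjusted p = 0.186, edgeR), and it was called without SAH mouse 2 (0.83, adjusted p = 0.0907) or Sham mouse 6 (0.84, adjusted p = 0.0996). Ackr1, the Duffy antigen receptor of venules and erythroid cells, had 30.7 ± 1.74 CPM in SAH and 32.4 ± 1.30 CPM in control. Ackr4, a scavenger of Ccl19, Ccl21 and Ccl25, ranged over 2 to 6 counts after SAH and 1 to 5 counts in controls (adjusted p = 0.501, edgeR without the filter).

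Many of these genes lie in clusters (mm9). On chromosome 11, between 81849079 and 83478185, 11 chemokine ligands lie in 1 cluster, of which 4 were called (Ccl2, Ccl7, Ccl12 and Ccl5) in the fit without the filter, where 2.53% of all genes were called higher. The call of Ccl7 was lost in 8 of 10 fits that left out a mouse. Neighbours of them such as Ccl3, Ccl4, Ccl6 and Ccl9 were not. On chromosome 5, between 91188324 and 96390087, 2 of 9 were called, the adjacent Cxcl9 and Cxcl10. Among the 9 receptors on chromosome 9, between 120001251 and 124041922, Ccr1 and Ccr2 were called. The 3 ligands on chromosome 8, Ccl17, Ccl22 and Cx3cl1, held no called gene.

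The same SAH mice were also set against each control group on its own, in a fit of all 3 groups, in which the Sham comparison has the surgery in both groups. These 2 comparisons share the SAH mice, so their values are given side by side. Against Sham, 1 of 20 genes past the filter was called higher, Ccl5, where 0.529% of all genes were. Ccl5 was above the filter's cutoff in 3 SAH and 0 control mice, and Ccl12 in 4 and 0, so both entered the 20 only through the SAH mice and these counts are not read against the shares over all genes. Without the filter 4 of 48 were (Ccl2, Ccl5, Ccl12 and Cxcl9), where 0.686% of all genes were. Against Naive, 2 of 20 were called higher, Ccl5 and Ccl12 (2.03% of all genes), and without the filter 5 of 48, which were Ccl2, Ccl5, Ccl12, Cxcl9 and Ccr2 (1.8% of all genes). No chemokine gene was called lower by edgeR in either comparison, where 0.192% and 0.965% of all genes were with the filter and 0.246% and 0.85% without it. At an unadjusted p under 0.05, 8 of the 20 passed in each comparison, where 9.69% of all genes did against Sham and 14.8% against Naive, and DESeq2 called 2 higher against Sham (Ccl5 and Ccl12) and, against Naive, 3 higher (Ccl5, Ccl12 and Ccr2, the last with an adjusted p of 0.0398) and Cx3cl1 lower (adjusted p = 0.0725).

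Ccl5 had 103 counts in SAH against 3 in Sham mice, a ratio of pooled levels of 28.3 with a 95% counting interval from 9.41 to 139 (adjusted p = 0.0471, edgeR). No chemokine gene past the filter was called against Sham without SAH mouse 4, without any 1 of the Sham mice, or with only the mice of the 2 groups in the fit. Against Naive its log2 fold change was 3.65 (adjusted p = 0.0292), and no gene was called without Naive mouse 8 or Naive mouse 9. Ccl12 differed by 1.91 against Sham (adjusted p = 0.107) and by 2.05 against Naive (0.0449). Ccr1 differed by 1.81 against Sham (0.170) and 1.51 against Naive (0.148), Cxcl10 by 1.41 (0.281) and 1.30 (0.192), Cxcl16 by 0.87 (0.224) and 0.80 (0.161), and Cxcl12 by 0.57 (0.352) and 0.59 (0.182), all from edgeR. Ccl2 had 31 SAH counts against 2 in Sham and 3 in Naive mice, ratios of 12.8 (95% counting interval 3.25 to 110) and 7.81 (2.44 to 39.9). For Cxcl9, with 0 counts in Sham, the pooled SAH level was 7.42-fold that of a floor of 3 counts over the Sham group. The counting error of the SAH counts is again left out.

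Sham surgery alone was set against no surgery in the same fit. Of the chemokine genes 0 of 20 past the filter and 0 of 48 without it were called in either direction, where 0.00661% of all genes (1 of 15134) were called higher with the filter and 0.00512% without it, and 0.0% lower. None of them reached an unadjusted p under 0.05 in edgeR, where 2.02% of all genes did with the filter and 2.04% without it, and DESeq2 also called 0 of 20. Ccl12 had 17 counts in Sham and 14 in Naive mice, Ccr1 16 and 18, Cxcl10 19 and 19, and Ccr2 12 and 9. With 3 mice a group, Ccr2's 95% interval of −1.51 to 2.06 on the log2 scale shows how large a difference could have gone unseen.

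Which SAH mouse was the highest or lowest differed between the called genes. Some mouse must hold each place, and some ranks rest on few counts. For Ccl7 SAH mouse 3 had 7 counts and SAH mouse 1 had 6, and for Cxcl9 they had 10 and 7. A difference in profile between these mice was not tested. Among the 10 called genes SAH mouse 1 was the highest of the SAH mice for 4, SAH mouse 3 for 4, SAH mouse 4 for 2 and SAH mouse 2 for 0. SAH mouse 2 was the lowest for 4, and SAH mice 3 and 4 were each the lowest for 3. SAH mouse 3 joined the highest Ccl2, Ccl5, Ccl7 and Cxcl9 to the lowest Ccl12, Ccr2 and Cxcl16 of its group, and SAH mouse 1 had the highest Ccr1, Ccr2, Cxcl10 and Cxcl16.

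Markers of cells that could carry these genes were summed in each mouse, and their calls stand beside 3.13% of all genes called higher and 1.54% lower. Of 9 border-associated macrophage markers 7 were called higher (Mrc1, Cd163, F13a1, Stab1, Ms4a7, Siglec1 and Folr2), the list summing to 37.0 to 51.8 CPM in SAH and 19.9 to 25.8 CPM in control mice. Ms4a7, Siglec1 and Folr2 had at most 13, 12 and 9 counts in any control mouse and were counted mainly in SAH mice, so the 7 of 9 is not read against the share over all genes. Of 8 meningeal fibroblast markers 7 were called higher, which were Lum, Col1a1, Col1a2, Col3a1, Slc6a13, Slc13a4 and Igf2 (195 to 362 CPM against 138 to 184 CPM), of 8 endothelium markers 3, Pecam1, Cdh5 and Flt1 (131 to 249 CPM against 112 to 157 CPM), and of 10 microglia markers 2, Csf1r among them (428 to 524 CPM against 394 to 440 CPM). Of 7 monocyte markers only S100a4 could be tested after the filter and was called higher. Their sum was 2.28 to 4.49 CPM in SAH and 1.47 to 2.29 CPM in control, and the defining marker Ly6c2 ranged over 2 to 5 counts after SAH and 0 or 1 count in controls (called higher, adjusted p = 0.067, edgeR without the filter).

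T and NK cells are a known source of Ccl5 and carriers of Cxcr3 and Cxcr6, and most of their markers had few counts. The 15 markers summed to 2.06 to 3.44 CPM in SAH and 1.84 to 2.89 CPM in control, and 0 were called with or without the filter. Lck alone could be tested after the filter and made up the largest part of the sum (means 1.57 CPM in SAH and 1.66 CPM in control). The sum therefore says little about the rest of the list. Cd3d, Cd3e and Cd3g had at most 2 counts in any mouse, while Lck, the best counted, had 33 to 38 counts in SAH and 32 to 47 in control mice. The fitted log2 fold change was above 0 for 10 of the 15 and below 0 for 5 (Cd3g, Cd4, Lck, Klrd1 and Ncr1), and the lowest adjusted p was 0.189, for Cd2, with 0 to 4 counts in SAH mice and 0 in every control mouse. Of 10 neutrophil markers, 9 of them among the gene names, only Csf3r could be tested after the filter, and it was called by DESeq2 but not by edgeR. The list summed to 6.03 to 10.8 CPM in SAH and 4.81 to 6.72 CPM in control, mostly Csf3r (means 7.12 and 5.19 CPM). Of 5 B cell markers 0 could be tested and of 5 dendritic cell markers 2. None of these was called, nor was any marker of the 3 lists in edgeR without the filter. An absence of these cells cannot be read from so few counts. Of 8 astrocyte markers 1 was called by edgeR (Gfap) and 2 by DESeq2, of 5 pericyte markers 1 (Vtn) and of 9 neuron markers 1 (C1ql2). Of 10 choroid plexus markers 0 were called, with a median log2 fold change of 1.01 and sums of 106 to 1244 CPM in SAH and 48.3 to 845 CPM in control. Of 5 red blood cell markers 0 were called, and the 4 globin genes among them had 0 counts in every mouse. Alas2, also on this list, had 22 to 100 counts in SAH and 31 to 70 counts in control mice. Why the globin genes had no counts was not tested, and an absence of blood RNA cannot be read from them. The part of any of these cells in the chemokine values was not tested.

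**Figure D5:**
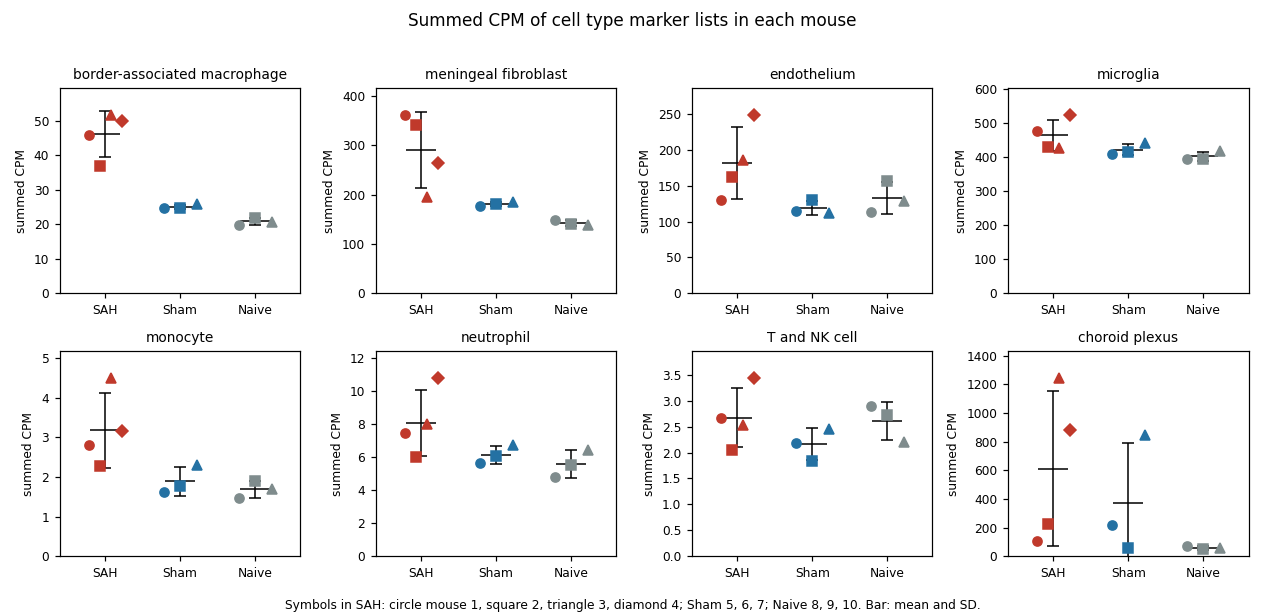
Summed CPM of 8 lists of cell type markers, with a symbol for each mouse and the mean and SD of each group (SAH n = 4, Sham n = 3, Naive n = 3). All SAH mice are above all controls for border-associated macrophage markers (37.0 CPM at the lowest SAH mouse, 25.8 at the highest control) and for meningeal fibroblast markers (195 and 184 CPM). Choroid plexus markers are high in SAH mice 3 and 4 and Sham mouse 7.

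Chemokine-related genes outside the naming rule were read from a list of 11. Of the 9 that could be tested 2 were called higher and 0 lower, where 3.13% and 1.54% of all genes were. Cd74, a receptor for the cytokine Mif and the invariant chain of MHC class II, had 4.70 ± 1.77 CPM in SAH and 1.43 ± 0.389 CPM in control (log2 fold change 1.71, adjusted p = 0.00440, edgeR). Pf4, platelet factor 4, had 0.970 ± 0.406 and 0.432 ± 0.113 CPM (1.16, adjusted p = 0.0596). The list's median log2 fold change was 0.31, against −0.0024 over all genes tested.

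Of 29 genes that carry the signal of chemokine receptors (G proteins, kinases, arrestins, Rac activators and RGS regulators) 26 were tested and 1 was called, Dock2, the Rac activator of migrating leukocytes, which was higher by 0.44 on the log2 scale (adjusted p = 0.0808, edgeR), near the 3.13% called higher over all genes. DESeq2 called 3 of the 26 higher and 2 lower, against 4.22% and 2.65% of all genes. The median log2 fold change of this list was 0.012 by edgeR. Of 23 leukocyte adhesion genes 19 were tested and 3 were called higher, against the same 3.13%: Icam1, the endothelial ligand of leukocyte integrins (0.80, adjusted p = 0.0131), Pecam1 (0.70, adjusted p = 0.0331) and Cd34 (0.35, adjusted p = 0.0192). Jam3, a junctional adhesion molecule, fell by 0.27 on the log2 scale (adjusted p = 0.0674, edgeR), and the median of the list was 0.20.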

How the data were processed

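Total RNA depleted of ribosomal RNA was sequenced from the hippocampus of 10 mice, 1 library per mouse. The authors aligned reads with STAR to mm9 and counted uniquely placed read pairs per gene name on the annotated strand with featureCounts 1.6.2, leaving out pairs that fell on more than 1 gene, and the deposited values are these raw counts. Mouse groups were taken from the labels, and each mouse is a separate animal.

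From the deposited counts, edgeR 4.0.16 (R 4.3.3) was run with TMM scaling, filterByExpr (minimum count 10, minimum total 15) and the quasi-likelihood test across all genes, adjusted by Benjamini-Hochberg, with calls at 0.10. SAH was compared with Sham and Naive mice together, and the groups singly in 1 fit of all 3. Genes kept out by the filter were read from the same test without it. Standard errors were derived from that test, as the absolute log2 fold change divided by the square root of its F. The 95% intervals are the estimate ± 1.96 such standard errors, which is approximate with so few mice. DESeq2 1.42.0, other filters and scalings, and fits leaving out mice were the alternatives. The procedure was tested on simulated data. Figures and summaries used Python 3.11.15.

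Genes named were all chemokine genes past the filter, those with at least 15 counts in all, Cx3cr1, and every gene called in the other lists, with a few defining markers added after their values were seen. The genes, marker lists and related lists were chosen with earlier results of these data known. The values of 1 chemokine gene and 1 marker are not reported here. Intervals on counts cover counting error only. Promoter sequences are from RefSeq on GRCm38.p6, and their coordinates were not mixed with those of mm9.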

Additional observations from a re-analysis of the deposited data

Results flagged for a closer look

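In 6 of 63 groups of 4 to 6 mice, 1 mouse lay farther from the others than Dixon's 95% limit allows, a test that chance meets in about 1 in 20 groups. SAH mouse 4 had 101.0 CPM of Cxcl12, where the rest of its group had 52.6 to 54.1 CPM. SAH mouse 3 had 1.21 CPM of Ccl17 (24 counts), where the rest of its group had 0.147 to 0.242 CPM. Cx3cl1 was 736.0 CPM in Naive mouse 9 and 655 to 674 CPM in the other 5 control mice. Cxcl5 was 0.0825 CPM (2 counts) in Sham mouse 5 and 0.806 to 1.09 CPM in the other control mice. Ccr9 was 0.442 CPM (11 counts) in Sham mouse 7 and 0.165 to 0.255 CPM in the others. Cxcl9 was 0.0424 CPM in Naive mouse 10, which is 1 count where the other control mice had 0.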

How the results depend on the processing

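Of 200 values of single genes under alternatives other than leaving out 1 mouse, 185 kept their direction and side of the threshold, 5 lost their call and 10 turned direction, and of 306 with 1 mouse left out 256 did, 18 lost a call, 3 gained one and 29 turned. None of the called genes turned direction. The choroid-rich mice were left out, and DESeq2 run without the filter, after the data were seen. For SAH against control the 5 genes called higher became 10 without a filter, 2 with at least 10 counts in every mouse, 9 by DESeq2 without the filter, 9 without the choroid-rich mice and the filter, and 3 at an adjusted p under 0.05, with 2 to 6 when 1 mouse was left out (2 without Naive mouse 8, and 3 without Naive mouse 9 or 10). The 10 called without the filter became 6 at 0.05. Against Sham, 1 became 4 without a filter, 2 by DESeq2, and 0 with at least 10 counts in every mouse or with only the mice of the 2 groups, and 0 to 4 with 1 mouse left out (4 without SAH mouse 3, and 0 without SAH mouse 4 or any 1 Sham mouse). Against Naive, 2 became 5 without a filter, 3 by DESeq2, 0 with at least 10 counts in every mouse and 1 with only the 2 groups, and 0 to 3 with 1 mouse left out (0 without Naive mouse 8 or 9, and 1 without SAH mouse 1, SAH mouse 4 or Naive mouse 10), while DESeq2 called 1 lower. DESeq2 called 3 of 26 receptor signalling genes higher and 2 lower, and 5 of 19 adhesion genes higher and 1 lower, where 4.22% and 2.65% of all genes were. Among the marker lists it called 2 astrocyte, 2 endothelium, 6 meningeal fibroblast and 1 neutrophil marker higher, where edgeR called 1, 3, 7 and 0. Fewer genes tested account for the stricter filter's counts, and the cause of the other changes was not tested. Directions that turned belonged to genes without a call. Without the choroid-rich mice the log2 fold change was 0.022 for Ackr3, 0.063 for Cxcr4, 0.072 for Ccl9, 0.019 for Cxcl14, 0.079 for Cxcl5, −1.03 for Ccl24, −0.15 for Ccl25, 0.45 for Ccl22 and −0.33 for Ccl17, and Ackr3 was 0.0018 with library size alone. With 1 mouse left out it ran from −0.049 to 0.045 for Ackr3, from −0.10 to 0.062 for Cxcr4, from −0.18 to 0.10 for Ccl9, from −0.22 to 0.074 for Ccl6, from −0.061 to 0.021 for Cxcl14, from −0.074 to 1.8e-05 for Ccl27a and from −0.067 to 0.077 for Ccl25. In the fits without the filter and 1 mouse, the values that turned were −0.27, −0.11, −0.11 and −0.10 for Ccl3, 0.0069, 0.022, 0.037, 0.32 and 0.38 for Ccl4, −0.41 for Ccr10, 0.046, 0.054, 0.064 and 0.093 for Ccl22 and −0.60 for Ccl17. No paired analysis was possible because the mice carry numbers 1 to 10, none of them shared between groups. Of the 59 genes, 27 had too few counts for any change to be read.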
